A study of Mus musculus with 18 samples.

Results

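The genes described here belong to the KEAP1-NRF2 pathway and to glutathione metabolism. They are the transcription factor gene Nfe2l2, which encodes NRF2, its repressor Keap1, and the enzyme and transporter genes Slc7a11, Gclc, Gclm, Gsr, Txnrd1, Srxn1, Nqo1 and Hmox1. The 10 members were chosen by name for their place in the pathway, out of 46603 genes in each table. No measured value set the choice, but earlier results of these data were known when it was made. All 10 were found in all 18 libraries and passed the filter on low counts in every comparison. NRF2 is made continuously and is held low by KEAP1, an adaptor that hands it to a CUL3 ubiquitin ligase. When cysteines of KEAP1 are modified by oxidants or electrophiles, NRF2 accumulates, pairs with a small MAF protein and binds antioxidant response elements beside genes for glutathione synthesis, quinone reduction and thioredoxin recycling. The airway lining meets inhaled oxidants directly, and this pathway is often activated by mutation in human lung cancers.

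RNA was sequenced from 10 cultures of mouse lung organoids and 8 cultures of tumoroids, and gene levels are given as CPM, counts scaled to library size, within a gene and as TPM, which also divides by transcript length, between genes. All mice that gave the cells carried a human EGFR transgene with the T790M and L858R changes at the Col1a1 locus, behind a lox-stop-lox cassette and driven by the CAG promoter. Sorted NGFR-negative cells of the trachea (named club), NGFR-positive cells of the trachea (named basal), Sca1-negative cells of the distal lung (named AT2) and Sca1-positive cells of the distal lung (named BASC, bronchioalveolar stem cells) were each divided between a control adenovirus, Ad-GFP, and Ad-Cre, which removes the stop cassette. They were grown in Matrigel over lung support cells of newborn mice, with 1 library per population and virus. The undivided BASC cultures are called mixed, and Ad-Cre BASC organoids were also picked by hand into 1 alveolar and 1 bronchiolar culture. Ad-Cre organoids were transplanted into the lungs of nude mice, and the tumors gave tumoroids of AT2 (n = 3), mixed BASC (n = 3) and bronchiolar BASC origin (n = 1). An 8th tumoroid came from a tumor transformed in vivo and is called autochthonous. Ad-GFP cultures carried the unrecombined transgene, and no culture without the transgene was analysed.

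Some labels limit these groups. NGFR-negative and NGFR-positive tracheal cultures held alike levels of the basal keratin Krt5 (1549 to 2063 TPM) and of Ngfr itself (46.6 to 53.1 TPM). The club secretoglobin Scgb1a1 lay between 7.03 and 18.4 TPM in all 4. The club markers Scgb3a1 (915 to 3084 TPM), Scgb3a2 (1649 to 2909 TPM) and Cyp2f2 (1822 to 3041 TPM) were high in all 4. Because both kinds held basal and club markers alike, they are called tracheal where pooled. The mixed BASC organoids had airway levels of Sox2 (131 and 170 TPM). They hold both alveolar and bronchiolar organoids according to the study, and were kept out of the comparison of airway with alveolar cultures. The surfactant gene Sftpc stood near 61000 TPM in the AT2 and alveolar BASC organoids. Tumoroid libraries were made and sequenced on another platform than the organoid libraries, and some tumoroids share a number in their labels and may share a mouse. Total expected counts ran from 27772660 to 97191624 in organoids and from 15327265 to 23355938 in tumoroids. No 2 libraries of a tumoroid group agreed within sampling noise. Cultures of different populations stand in for replicates of a virus or a tissue, so p-values hold for the spread among these cultures. In such bulk samples, fewer cells of a type and less RNA per cell cannot be told apart.

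Short promoter windows of RefSeq on GRCm38.p6, from 250 bases before to 50 bases after a start site, covered 7 of the 10 genes. They were searched on both strands for the core of the antioxidant response element, TGACNNNGC, and for the stricter TGACTCAGC, every match of which is also a match of the core. The core stood in 4 of the 9 windows of these 7 genes, 1 each for Nfe2l2, Gclm, Txnrd1 and Srxn1, beside 12.4% of 32851 promoters of the same length. The strict form was in none of the 9, beside 0.454% of all promoters. The following 3 stretches are shown because they place the core, in capitals, upstream of the start of genes whose levels are described below. For Nfe2l2 it lies 236 bases upstream, on the gene's own strand (chr2:75704880-75704913, minus strand). For Gclm it lies 130 bases upstream and is printed on the opposite strand (chr3:122245408-122245446, minus strand). For Txnrd1 it lies 88 bases upstream of a start inside the gene's span, again printed on the opposite strand (chr10:82859099-82859137, minus strand).
Nfe2l2: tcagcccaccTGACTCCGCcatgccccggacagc
Gclm: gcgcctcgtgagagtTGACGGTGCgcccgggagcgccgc
Txnrd1: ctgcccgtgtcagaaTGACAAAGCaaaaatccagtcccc
A match of letters is not a measured binding site.

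Per length, the pathway genes stood at very different levels. Median TPM over the 18 cultures was highest for Nfe2l2 at 189 and Gclc at 143, followed by Txnrd1 at 107, Hmox1 at 106, Gsr at 99.6 and Gclm at 82.5. Keap1 at 38.1, Srxn1 at 33.8, Nqo1 at 18.7 and Slc7a11 at 7.37 TPM came last. Nqo1, which encodes the quinone reductase NAD(P)H dehydrogenase, varied most between cultures, from 3.06 to 103 TPM or 33.7-fold. Slc7a11, the cystine importer of system xc-, varied 13.5-fold, from 1.41 to 19.1 TPM. Keap1 varied least, 1.59-fold between 30.04 and 47.7 TPM. The SD of log2 CPM over the 18 cultures was 1.57 for Nqo1 and 0.16 for Keap1, beside a median of 0.73 over all genes. Neighbours in this order, such as Txnrd1 and Hmox1, overlapped in their ranges.

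**Figure D1:**
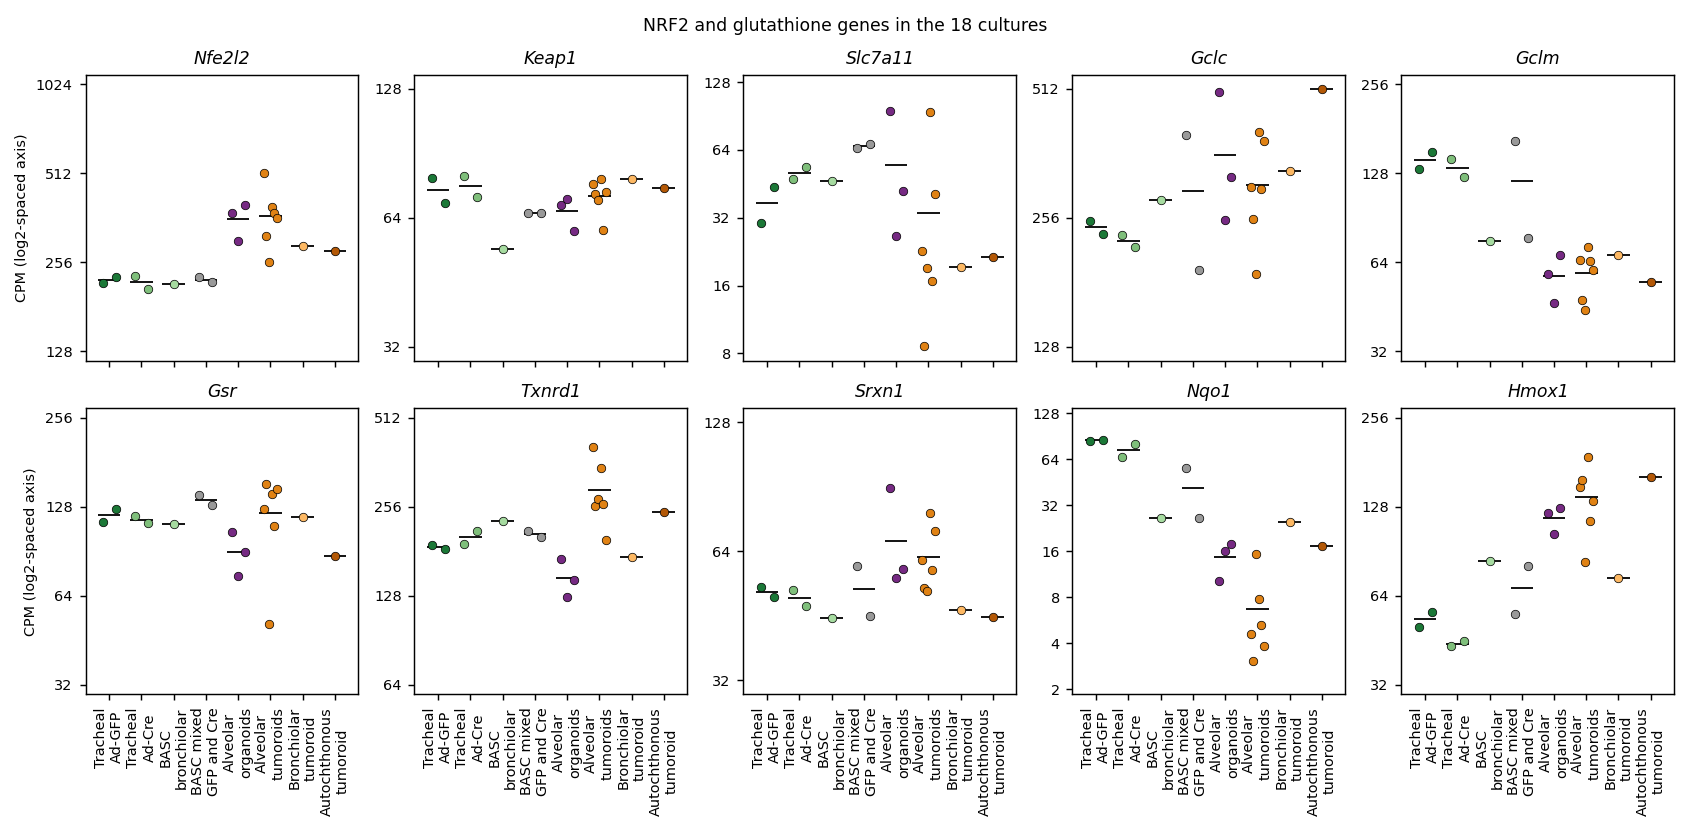
Level of each of the 10 genes in the 18 cultures, in CPM on log2-spaced axes, 1 point per culture, with horizontal lines at group means. Nqo1 was between 65.8 and 85.6 CPM in the 4 tracheal cultures and between 3.07 and 15.4 CPM in the 6 tumoroids of AT2 or mixed BASC origin, while Keap1 stayed between 54.2 and 80.2 CPM throughout.

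The first comparison asked whether switching on the transgene moved these genes, within the 4 populations that had both viruses. No member passed an adjusted p of 0.05, and neither did any of the 19178 genes tested (0%; edgeR quasi-likelihood test with population as a block). At an unadjusted p under 0.05 there were 396 genes (2.06%) and 1 member, and DESeq2 called 5 genes, none of them a member. Of the 10 genes, 9 had a fitted change below 0, with a median log2 fold change of -0.19 beside -0.0049 over all genes.

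Gclc (chr9:77754535-77794485 on GRCm38, plus strand) encodes the catalytic subunit of glutamate-cysteine ligase, the rate-limiting enzyme of glutathione synthesis. It went from 252 CPM with Ad-GFP to 233 with Ad-Cre in the club pair, from 235 to 219 in the basal pair, from 504 to 253 in the AT2 pair and from 399 to 194 in the mixed BASC pair. All 4 Ad-Cre cultures were the lower ones, by about 2-fold in both distal pairs and by less than 10% in both tracheal pairs. The fitted log2 fold change was -0.57 (SE 0.21, unadjusted p = 0.033, adjusted p = 0.996 in edgeR). Srxn1, sulfiredoxin, which repairs overoxidised peroxiredoxins (chr2:152105516-152111376, plus strand), was also lower in 4 of 4 pairs, from 52.8 to 51.9, 49.9 to 47.6, 89.8 to 55.5 and 59.1 to 45.2 CPM in the same order. Its distal differences too were larger than its tracheal ones, with a fitted change of -0.31 (SE 0.13, adjusted p = 0.996). A fall in all 4 pairs was shown by 4.72% of 18830 genes. Keap1 was higher in 4 of 4 pairs, as were 4.98% of genes, but by at most 0.05 on the log2 scale.

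The other glutathione genes did not move alike in the pairs. Slc7a11 (chr3:49892526-50443614, minus strand) went from 30.4 to 47.6 CPM in the club pair, from 43.9 to 53.8 in the basal pair, from 95.02 to 26.7 in the AT2 pair and from 65.5 to 67.8 in the mixed BASC pair. The AT2 pair alone was lower with Ad-Cre, by 3.56-fold. Gclm, the modifier subunit of glutamate-cysteine ligase, was 165 CPM with Ad-GFP and 77.4 with Ad-Cre in the mixed BASC pair and differed by 0.33 or less on the log2 scale in the other 3 pairs. Nqo1 was lower with Ad-Cre in the mixed BASC pair (56.3 to 26.4 CPM) and higher in the AT2 pair (10.2 to 16.2 CPM). Cell markers also differed within the distal pairs. In the AT2 pair Scgb1a1 was 50.9 TPM with Ad-GFP and 1221 with Ad-Cre, and the summed level of 7 fibroblast markers was 3386 and 2866 TPM. These markers did not move alike, since Dcn went from 640 to 184 and Lum from 378 to 142 TPM while Col1a1 went from 508 to 732 TPM. In the mixed BASC pair the sum of 7 AT2 markers was 786 and 3466 TPM, that of 4 ciliated cell markers 1613 and 378, and that of the fibroblast markers 759 and 1756. Their part in these differences was not tested. In the tracheal pairs the fibroblast sums lay between 785 and 855 TPM.

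A test of the difference between the distal and the tracheal effect of Ad-Cre called 0 of 19178 genes in edgeR (890 at an unadjusted p under 0.05, 4.64%). Gclc had a distal minus tracheal difference of -0.92 on the log2 scale (SE 0.18, unadjusted p = 0.0031, adjusted p = 0.505), and Srxn1 one of -0.50 (SE 0.17, adjusted p = 1). Neither passed.

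**Figure D2:**
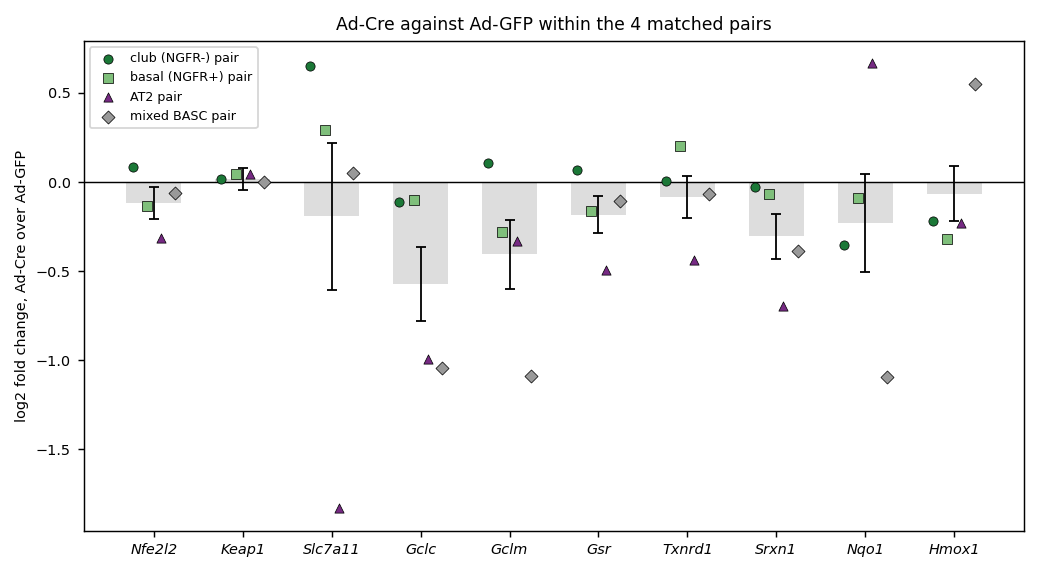
Log2 fold change of Ad-Cre over Ad-GFP for each gene (y axis), with 1 point for each of the 4 matched pairs, and bars with error bars for the fitted change ± SE. Gclc and Srxn1 lay below 0 in all 4 pairs, Slc7a11 was far below 0 in the AT2 pair alone (-1.83), and Keap1 stayed within 0.05 of 0.

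Among 28 further NRF2 targets, no gene passed the adjusted threshold, 9 had an unadjusted p under 0.05 in edgeR and the median log2 fold change was -0.21. Of these 28 genes, 28 were lower with Ad-Cre in the AT2 pair, 25 in the basal pair, 20 in the mixed BASC pair and 15 in the club pair, and 10 were lower in all 4. Over all genes the shares lower were 50.8%, 50.5%, 47.6% and 46.5%, in the same order. The smallest p values belonged to the glutathione transferase Gstm1 (log2 fold change -0.94, SE 0.24) and to G6pdx, the first enzyme of the pentose phosphate pathway (-0.30, SE 0.08), both at an adjusted p of 0.996. In the 27 genes of glutathione metabolism the lead was held by Gstz1 (-0.29) and the glutathione synthetase Gss (-0.30), and in the 18 thioredoxin, peroxiredoxin and superoxide enzymes by catalase, Cat (-0.28), and Prdx6 (-0.23). In the 14 NRF2 regulators it was held by Nfe2l3 (0.14) and Maff (0.21), and the median was 0.03. Reads shared by near-identical glutathione transferases, ferritins and aldo-keto reductases are divided by estimate, so values of Gstm1, Gsta3, Gsta4, Ftl1 and Akr1b8 are uncertain to that extent.

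The second comparison set the 5 airway organoid cultures (4 tracheal, 1 bronchiolar BASC) against the 3 alveolar ones (2 AT2, 1 alveolar BASC), with virus as a covariate. Of the 10 members, 8 passed an adjusted p of 0.05, 4 higher and 4 lower in airway cultures, where 55.2% of 18952 genes passed (28.4% higher, 26.8% lower). On TPM with limma the called genes were 6480 higher and 4051 lower, against 5373 and 5086 here, so the share of higher calls depends on the scale. In this fit most members thus differed between the tissues, in both directions, in a setting where most genes did. The Ad-GFP and Ad-Cre cultures of a population counted separately in this fit. With the counts of both viruses summed per population, 5 members and 5995 of 18926 genes passed. The alveolar and bronchiolar BASC cultures stayed apart in these sums, although both were picked from BASC organoids. The sums are thus not all independent sorts.

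Nqo1 (chr8:107388225-107403206, minus strand) showed the largest difference of the 10. It measured 84.0, 65.8, 85.6 and 80.3 CPM in the tracheal cultures (club Ad-GFP, club Ad-Cre, basal Ad-GFP, basal Ad-Cre) and 26.3 in the bronchiolar BASC culture, against 10.2, 16.2 and 17.9 CPM in AT2 Ad-GFP, AT2 Ad-Cre and alveolar BASC. The ranges did not overlap, and the bronchiolar culture stood nearer to the alveolar ones. Nqo1 was higher in airway cultures by 2.14 on the log2 scale (SE 0.44, adjusted p = 0.0053 in edgeR, and 0.054 with counts summed per population). Gclm (chr3:122245557-122270732, plus strand) followed the same order, at 133, 143, 151 and 125 CPM in trachea, 75.6 in the bronchiolar culture and 58.5, 46.6 and 67.9 in the alveolar cultures. Its airway level was higher by 1.06 (SE 0.24, adjusted p = 0.0083 in edgeR, and 0.087 with counts summed per population). The fibroblast marker sum was 785 to 1477 TPM in the airway and 1581 to 3386 in the alveolar cultures, all 7 markers being present in both, and its part in these differences was not tested. The 4 endothelial markers stayed below 1 TPM each in both groups. Of 6 leukocyte markers, Cd68 and Cd14 made up nearly the whole sum (528 to 615 TPM in airway, 101 to 214 in alveolar cultures), with Ptprc, the common leukocyte antigen, at 0.42 TPM or less.

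Nfe2l2 itself (chr2:75675513-75704641, minus strand) had the opposite order. It measured 217, 230, 229 and 208 CPM in trachea and 215 in the bronchiolar culture, against 375, 301 and 399 in the alveolar cultures. The airway values were tightly grouped, and all lay below the alveolar ones, by 0.75 on the log2 scale (SE 0.11, adjusted p = 0.0013). Hmox1, heme oxygenase 1, which breaks heme down to biliverdin, iron and carbon monoxide (chr8:75093621-75100589, plus strand), measured 50.2, 43.1, 56.2 and 45.0 CPM in trachea, 84.2 in the bronchiolar culture and 122, 104 and 127 in the alveolar cultures. It was lower in airway cultures by 1.12 (SE 0.22, adjusted p = 0.0045), without overlap. Keap1 (chr9:21229730-21239361, minus strand) overlapped between the groups at 54.2 to 80.2 and 59.7 to 70.8 CPM, and its difference of 0.05 (SE 0.14, adjusted p = 0.784) did not pass.

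The 4 other genes that passed differed by less. Gsr, glutathione reductase (chr8:33652523-33698163, plus strand), was 112 to 126 CPM in airway and 74.7 to 105 CPM in alveolar cultures, higher by 0.33 (SE 0.10, adjusted p = 0.027). Txnrd1, cytosolic thioredoxin reductase (chr10:82833951-82897712, plus strand), was 184 to 229 against 126 to 171 CPM, higher by 0.41 (SE 0.12, adjusted p = 0.026). Srxn1 was 44.6 to 52.8 against 55.5 to 89.8 CPM, lower by 0.49 (SE 0.13, adjusted p = 0.013 in edgeR). The mixed BASC organoids, left out here, held 59.1 CPM of Srxn1 with Ad-GFP, within the alveolar range, and 45.2 CPM with Ad-Cre. Gclc was 219 to 282 against 254 to 504 CPM, lower by 0.58 (SE 0.19, adjusted p = 0.032), and its ranges overlapped. Slc7a11 overlapped at 30.4 to 53.8 and 26.7 to 95.02 CPM and did not pass (-0.26, SE 0.39, adjusted p = 0.596). In all, 7 members showed no overlap, 4 of them higher and 3 lower in airway cultures, beside 54.8% of 18724 genes (29.3% higher, 25.5% lower). Nfe2l2 and Hmox1 passed under all 16 alternatives, whereas the other 6 each lost the call under at least 1. With counts summed per population (3 airway against 2 alveolar sums, with a BASC culture on each side), 5 members passed in edgeR. In that fit of edgeR Nqo1 reached an adjusted p of 0.054, Gclm of 0.087 and Srxn1 of 0.059. Without the AT2 Ad-GFP culture Gclc differed by -0.28 (adjusted p = 0.205), Srxn1 by -0.29 (adjusted p = 0.075) and Gclm by 0.95 (adjusted p = 0.052).

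**Figure D3:**
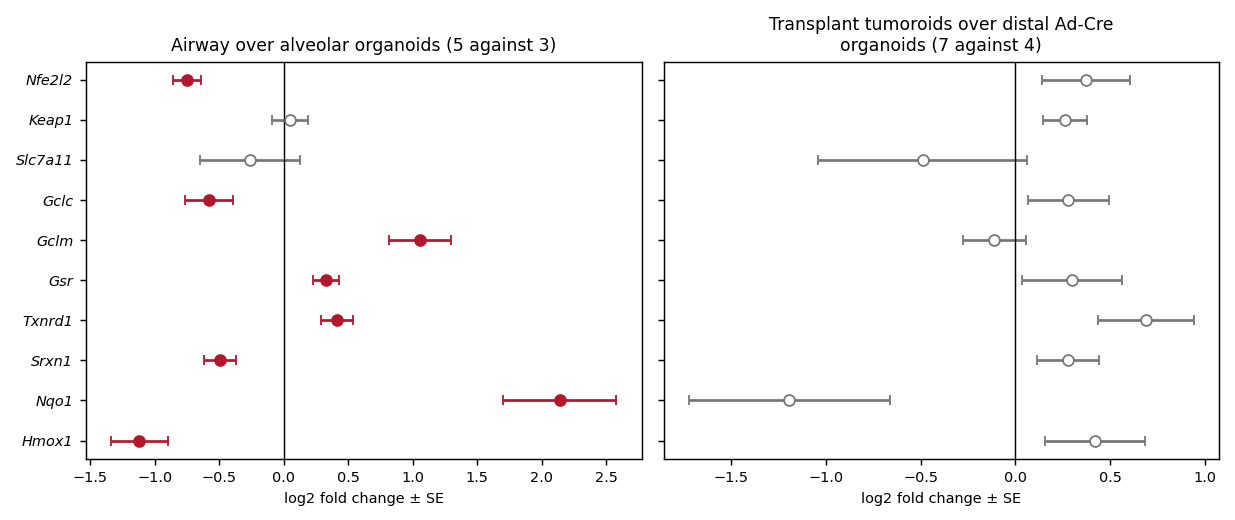
Fitted log2 fold change ± SE of the 10 genes for airway over alveolar organoids (left) and for transplant tumoroids over distal Ad-Cre organoids (right), with filled red points for an adjusted p below 0.05. On the left 4 genes lay above 0 and 4 below 0 with filled points, from Nqo1 at 2.14 to Hmox1 at -1.12, and on the right no point was filled.

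The 2 subunits of glutamate-cysteine ligase stood in different proportion in the 2 tissues. Per length, the ratio of Gclm to Gclc TPM was 1.22 to 1.49 in the 4 tracheal cultures, 0.91 and 0.99 in the mixed BASC cultures, 0.59 in the bronchiolar BASC culture and 0.22 to 0.40 in the 3 alveolar cultures. The tracheal cultures were the ones with more Gclm than Gclc. In the transplant tumoroids the ratio lay between 0.41 and 0.66, and in the autochthonous tumoroid it was 0.25.

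Over the 18 cultures, levels of Nfe2l2 and Nqo1 ran in opposite directions (Pearson r = -0.80 on log2 CPM), as did Nqo1 and Hmox1 (r = -0.88). Within the 10 organoid cultures the values were -0.78 and -0.95, and within the 8 tumoroids -0.61 and -0.56. Nqo1 and Gclm ran together over all cultures (r = 0.79) and in organoids (r = 0.92) but had r = -0.0022 in tumoroids. Of the 45 pairs of members, 23 had a positive r in organoids and 37 in tumoroids. These points share populations, support cells and platforms, and the values are descriptions. Nqo1 also ran against Sftpc (r = -0.87) and with Krt5 (r = 0.87) over the 18 cultures. Within the 10 organoid cultures it ran as closely against the fibroblast marker Col1a2 (r = -0.96) as against Sftpc (r = -0.95). With Col1a2 the value was 0.14 over the 18 cultures and 0.57 in the 8 tumoroids. The part of epithelial and support cells in these values was not tested.

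**Figure D4:**
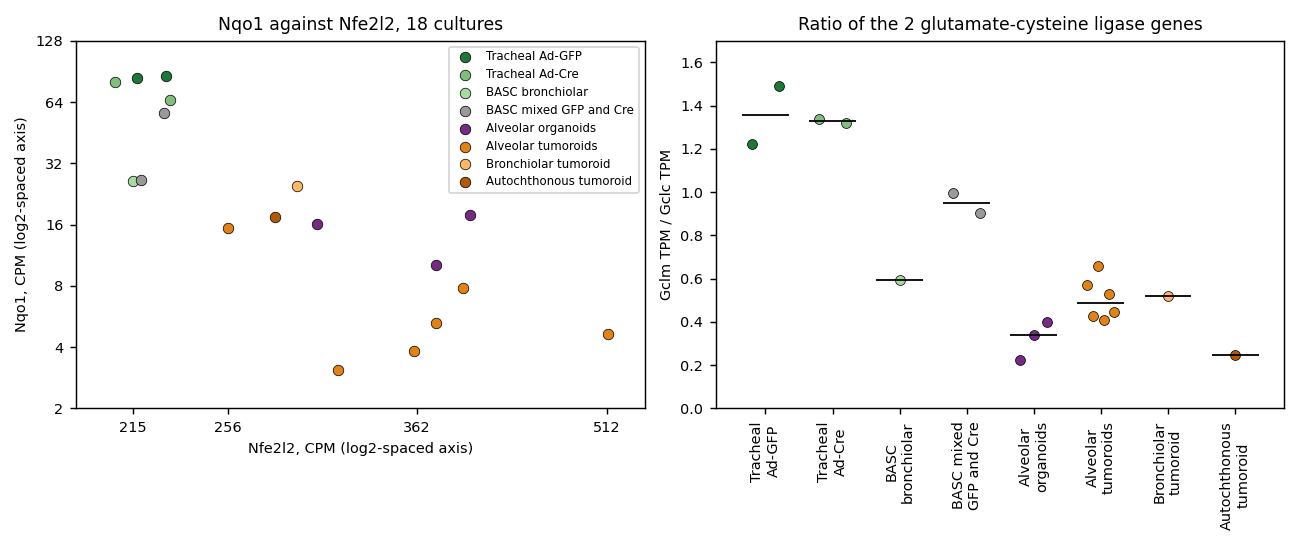
Left, Nqo1 against Nfe2l2 in CPM on log2-spaced axes, 1 point per culture. Right, the ratio of Gclm to Gclc TPM per culture with lines at group medians, which ran from 0.22 to 0.40 in alveolar organoids and from 1.22 to 1.49 in tracheal ones.

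Genes most like a member in pattern, by Pearson r of log2 CPM over the 18 cultures among 11892 genes of at least 5 CPM on average, were Sbf2, Ces2g and Serpinb8 for Nqo1 (r = 0.956, 0.956 and 0.953). For Hmox1 they were Tfrc, the transferrin receptor, at 0.972, Gja3 and Pcbd1. For Gclc the closest was Psen2 at 0.786, and for Slc7a11 it was Muc20 at 0.769. The closest genes of Gclc and Slc7a11 were thus less alike in pattern than those of Nqo1 and Hmox1.

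Wider parts of the pathway also differed in both directions, where 28.4% of all genes were called higher and 26.8% lower in airway cultures. Of the 28 further NRF2 targets, 11 were higher and 10 lower in airway cultures, and 7 did not pass, with a median of 0.17 beside 0.06 over all genes. Gpx2, a glutathione peroxidase of epithelia, rose to 403 ± 124 CPM (SD, n = 5) in airway from 16.8 ± 8.41 CPM (SD, n = 3) in alveolar cultures (log2 fold change 4.53, adjusted p = 0.00048 in edgeR). The aldehyde dehydrogenase Aldh3a1 was higher by 3.88 and the glutathione transferase Gsta4 by 2.79. Me1, cytosolic malic enzyme, a source of NADPH, had a log2 fold change of -2.07. Of the 14 regulators 4 were higher and 3 lower, with Nfe2l3, an NRF2-related factor, at 53.1 CPM in airway and 2.70 in alveolar cultures (4.37, adjusted p = 0.00028). Maff, a small MAF partner, was higher by 0.85 and Dpp3 by 0.50. Nfe2 was lower (-5.42, SE 0.61, adjusted p = 0.00038 in edgeR), at 0.07 CPM in airway cultures, near the limit of detection, and 3.32 CPM in alveolar ones.

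In glutathione metabolism 6 of 27 genes were higher and 12 lower in airway cultures, beside 28.4% and 26.8% of all genes. The largest differences were those of the transferases Gstt1 (-5.26), Gsto1 (3.84) and Gstk1 (-2.83) and the gamma-glutamyltransferase Ggt6 (3.60). Of the 18 thioredoxin, peroxiredoxin and superoxide enzymes 2 were higher and 9 lower, with a median of -0.60. Catalase was 79.2 ± 9.94 CPM (SD, n = 5) in airway and 398 ± 66.3 CPM (SD, n = 3) in alveolar cultures (log2 fold change -2.38, adjusted p = 3.17e-05 in edgeR). Txnrd3 (-1.77), the mitochondrial peroxiredoxin Prdx3 (-1.45) and the secreted superoxide dismutase Sod3 (-1.20) were the others with the largest differences.

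The third comparison set the 7 transplant tumoroids against the 4 distal Ad-Cre organoid cultures. The organoids were sequenced on another platform, so stage and platform cannot be told apart. No member passed, although 19.6% of 16139 genes did (10.8% higher, 8.77% lower in tumoroids). At an unadjusted p under 0.05 there were 3 members, beside 34.3% of all genes. All 10 members overlapped between the groups, beside 15.5% of genes that did not.

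Txnrd1 came nearest. It measured 126 in AT2, 202 in mixed BASC, 145 in alveolar BASC and 229 CPM in bronchiolar BASC organoids, and its tumoroid values had a lowest of 174, a median of 262 and a highest of 408 CPM. Only the bronchiolar tumoroid, at 174, and the third mixed BASC tumoroid, at 197, lay below the 2 highest organoid cultures. The log2 fold change was 0.69 (SE 0.25, adjusted p = 0.078). Nqo1 measured 16.2, 26.4, 17.9 and 26.3 CPM in the same organoids and from 3.07 over a median of 5.24 to 24.7 CPM in tumoroids. The bronchiolar tumoroid, the lowest for Txnrd1, was the highest for Nqo1, and the log2 fold change was -1.19 (SE 0.53, adjusted p = 0.138). Without that tumoroid both passed, Txnrd1 at 0.79 (adjusted p = 0.035) and Nqo1 at -1.64 (adjusted p = 0.022). Keap1 was the other member with an unadjusted p under 0.05 (0.26, SE 0.12, adjusted p = 0.134 in edgeR).

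Within alveolar cultures alone, an alternative chosen after seeing the data, the 6 tumoroids of AT2 or mixed BASC origin were set against the AT2 and alveolar BASC Ad-Cre organoids. Txnrd1 was higher in all 6, at 197 to 408 against 126 and 145 CPM, by 1.13 on the log2 scale (SE 0.29, adjusted p = 0.045), in a fit where 9.16% of 16796 genes passed. Nqo1 was lower in all 6, at 3.07 to 15.4 against 16.2 and 17.9 CPM, and did not pass (-1.33, SE 0.54, adjusted p = 0.163). The 8 other members overlapped, and 34.8% of genes of at least 1 CPM did not. Nfe2l2 was 256 to 513 CPM in these tumoroids and 301 and 399 CPM in the organoids.

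The remaining members had wide and overlapping ranges in tumoroids. Slc7a11 ran from 8.60 to 94.6 CPM (log2 fold change -0.49, SE 0.55, adjusted p = 0.571) and Gclc from 189 to 406 CPM (0.28, SE 0.22, adjusted p = 0.393). Gclm was 44.1 to 71.8 CPM (-0.11, SE 0.17, adjusted p = 0.684). Nfe2l2 (0.37), Hmox1 (0.42), Gsr (0.30) and Srxn1 (0.28) had adjusted p from 0.264 to 0.463. The third AT2-derived tumoroid had the lowest Gsr, 51.4 CPM, the lowest Gclc, 189 CPM, and the highest Nqo1, 15.4 CPM, of the 6. It was also lowest for Gclm in CPM (44.1, next to 47.8 in the second AT2-derived tumoroid) but not in TPM, where these 2 stood at 66.8 and 48.4. Its fibroblast sum was 4263 TPM, against 172 and 296 in the other 2 AT2-derived tumoroids, and its Sftpc 23660 against 81110 and 123100 TPM. The part of this in the values was not tested.

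Of the 28 further NRF2 targets 7 rose and none fell in the tumoroids, where 10.8% of all genes rose and 8.77% fell. The median log2 fold change of the 28 was 0.48, beside -0.0016 over all genes. Gstm1 rose to 424 ± 169 CPM (SD, n = 7) from 117 ± 13.9 CPM (SD, n = 4) without overlap (1.91, SE 0.33, adjusted p = 0.0038 in edgeR). This holds against the Ad-Cre cultures only. The AT2 and mixed BASC Ad-GFP organoids held 329 and 341 CPM of Gstm1, within the tumoroid range of 183 to 672 CPM. The prostaglandin reductase Ptgr1 (1.91), the ferritin light chain Ftl1 (1.07) and the aldo-keto reductase Akr1b8 (0.90) rose too. Among the regulators Mafk rose (0.74), and Nfe2l3 (-3.55), the NRF2-opposing repressor Bach1 (-0.66) and Cul3, the scaffold of the ligase that acts on NRF2 (-0.44), fell. Of the 4 organoid cultures, the mixed and bronchiolar BASC ones were airway-like, with club marker sums of 10510 and 10830 TPM. Among the 7 tumoroids the bronchiolar one was the most airway-like, with 12970 TPM of club and 8210 TPM of AT2 markers. The second mixed BASC tumoroid, counted as alveolar, held 3351 TPM of club and 33160 TPM of AT2 markers. Of the ciliated cell markers, Dynlrb2 (-4.72, adjusted p = 0.0017) and Tppp3 (-2.35, adjusted p = 0.016) fell as well. Foxj1 did not pass (-0.84, adjusted p = 0.73 in edgeR). It was 132 TPM in the bronchiolar tumoroid and 1.17 to 90.8 TPM in the 4 organoid cultures. Nfe2l3 stood at 64.6 and 60.7 CPM in those 2 organoid cultures and at 1.64 and 5.05 CPM in the alveolar ones, and within alveolar cultures alone the tumoroids (0.195 to 1.95 CPM) overlapped with the organoids. Of 26 glutathione metabolism genes tested 1 fell, the glutathione-degrading enzyme Chac2 (-1.25), and of the 18 thioredoxin, peroxiredoxin and superoxide enzymes the mitochondrial thioredoxin Txn2 (1.01) and Prdx2 (0.68) rose.

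Between tumoroids of AT2 and of mixed BASC origin (3 against 3), no member and none of 15470 genes passed in edgeR (0%), 144 genes (0.931%) and no member had an unadjusted p under 0.05, and DESeq2 called 7 genes and no member. Slc7a11 measured 22.7, 8.60 and 19.2 CPM in AT2-derived and 94.6, 16.7 and 40.6 CPM in mixed BASC-derived tumoroids. The groups overlapped through the second mixed BASC tumoroid, and the log2 fold change was -1.57 (SE 0.66, adjusted p = 1). Gclc measured 302, 254 and 189 against 406, 299 and 386 CPM, again with 1 overlapping value (-0.54, SE 0.24, adjusted p = 1). All 10 members overlapped, while 3.41% of genes did not. The median of the 4 wider lists ran from 0.02 to 0.32, beside 0.04 over all genes, and no gene in them passed, the smallest p being those of Ggt5 (-2.05), Prdx6 (-0.62) and Txnrd3 (0.75).

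The single bronchiolar tumoroid and the single autochthonous one allow no test. The bronchiolar tumoroid had 24.7 CPM of Nqo1, above all 6 alveolar tumoroids with a mean of 6.65 ± 4.56 CPM (SD, n = 6), and it was also above them for Keap1 (78.8 CPM), by little. It was below all 6 for Hmox1 (73.3 CPM), Txnrd1 (174 CPM) and Srxn1 (46.6 CPM). These 5 of 10 members stand beside 38.7% of genes of at least 1 CPM for which that tumoroid lay outside the range of the others. Its club marker sum was 12970 TPM and its Sox2 115 TPM, against 60.6 to 3351 and 0.06 to 18.8 TPM in the alveolar tumoroids. The autochthonous tumoroid had 511 CPM of Gclc, above all 7 transplant tumoroids (189 to 406 CPM), and 45.0 CPM of Srxn1, below all 7 (46.6 to 78.4 CPM). The other 8 members lay within the transplant range, and 27.5% of genes lay outside it.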

How the data were processed

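Reads were trimmed with Trimmomatic 0.39, aligned with STAR 2.6.1d and quantified with RSEM 1.3.2 on GRCm38 by the authors, per the labels and the study's methods. The authors deposited one table per library with an expected count per gene, not normalized between libraries, and TPM, a length-scaled share of each library's transcripts. Gene identifiers were matched to GENCODE vM21 symbols (46091 of 46603). Expected counts were rounded, filtered with filterByExpr, scaled with TMM factors and tested with the edgeR 4.0.16 quasi-likelihood test in R 4.3.3, with Benjamini-Hochberg adjustment over all genes tested and a threshold of 0.05. Matched pairs were fitted with population as a block, and the airway comparison with virus as a covariate. The alternatives were DESeq2 1.42.0, RLE factors, no filter, at least 10 counts in every sample, limma 3.58.1 on log2(TPM + 1), other sample sets or blocks, and leaving out each library or pair. CPM used TMM-scaled library sizes, and log2 CPM a prior count of 2. The procedure was tested on simulated data. The simulated libraries were drawn independently, without effects of a shared population or mouse, so that test does not cover such sharing.

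The 10 members and the gene lists were chosen with earlier results of these data known. Further genes were named by a rule: from each list, up to 4 called genes with the largest fold change, or the 2 with the smallest p where none was called, and the 3 genes most like Nqo1, Gclc, Slc7a11 or Hmox1. The human transgene was not analysed here. AT2-derived tumoroids carry an NGFR-negative sorting label and were placed by their AT2 origin.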

Additional observations from a re-analysis of the deposited data

Results flagged for a closer look

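In 5 of 40 groups of 4 to 10 values examined, 1 value stood apart by Dixon's ratio at the 95% level. About 1 group in 20 does so by chance. The ratio is the gap of a value to the nearest one over the whole range. It was computed on log2 CPM, or on log2 differences for the pairs, and not on the CPM values printed here. Among the airway organoids the bronchiolar BASC culture was lowest for Nqo1 (ratio 0.778) and for Gclm (0.719). Among the 4 matched pairs the mixed BASC pair was highest for the Hmox1 difference (0.883), at 0.55 on the log2 scale where the other 3 pairs were between -0.32 and -0.22. Among the 7 transplant tumoroids the second mixed BASC tumoroid was lowest for Keap1 (59.9 CPM, ratio 0.592), and the third AT2-derived tumoroid was lowest for Gsr (51.4 CPM, ratio 0.696).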

How the results depend on the processing

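Neither matched pairs nor AT2-derived against mixed BASC-derived tumoroids gave a called gene under any fit of edgeR or limma, with or without a replicate block for population in the pairs (0 genes without it), and DESeq2 called 5 and 7 genes. Airway against alveolar cultures called 6898 to 12023 genes and 5 to 8 members when 1 culture was left out, lowest for genes without AT2 Ad-GFP and at 5 members without that culture or basal Ad-Cre, and 5995 genes and 5 members with counts summed per population. Gclc lost its call without any of 6 cultures (adjusted p up to 0.205), Gsr of 4 and Txnrd1 of 3 (AT2 Ad-Cre, basal Ad-Cre and alveolar BASC), with adjusted p up to 0.091 and 0.102. Gclc and Srxn1 also lost it on TPM (0.093 and 0.066), and Txnrd1 with tracheal and AT2 cultures only (0.070). Tumoroids against organoids called 1973 to 3716 genes and 0 to 2 members when 1 library was left out, lowest without the bronchiolar BASC organoids, 1302 genes with tissue origin as a block and 1538 with alveolar cultures alone, which was chosen after seeing the data. Txnrd1 was the 1 member called under DESeq2 (adjusted p = 0.044), without the bronchiolar tumoroid and culture (0.043), with all 6 distal organoid cultures (0.036) and with alveolar cultures alone (0.045). Members that did not pass changed sign in some fits: in the pairs Hmox1 in the distal pairs alone (0.14), and Slc7a11 (0.46) and Txnrd1 (0.10) in the tracheal pairs alone; in tumoroids against organoids Gclc with all 6 distal cultures (-0.040), Gclm on TPM (0.13) and with alveolar cultures alone (0.072) and Slc7a11 with the latter (0.0070); between tumoroids Keap1 on TPM (-0.072), where the median of all genes moved from 0.04 to -0.13, and Nfe2l2 with same-numbered tumoroids summed (0.055). Leaving out 1 pair gave -0.26 to 0.019 for Hmox1 (0.00064 without the AT2 pair), -0.51 to 0.064 for Nqo1, -0.49 to 0.33 for Slc7a11 and -0.18 to 0.05 for Txnrd1. Leaving out 1 organoid culture gave -0.029 to 0.12 for Keap1 and -0.66 to 0.47 for Slc7a11, and leaving out 1 tumoroid gave -0.58 to 0.077 for Gsr, -0.32 to 0.085 for Hmox1, -0.028 to 0.14 for Keap1, -0.37 to 0.13 for Nfe2l2 and -0.55 to 0.86 for Nqo1. The cause of these changes was not tested. The shallowest library held 15327265 counts, and each organoid condition had 1 culture.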
